A study of Mus musculus with 8 samples.

Results

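The genes described here encode 9 subunits of the voltage-gated potassium channels that repolarize heart muscle cells. They were chosen by symbol, as the rows of the deposited count table whose Entrez numbers belong to Kcnd2, Kcnd3, Kcnip2, Kcna4, Kcna5, Kcnv2, Kcnq1, Kcne1 and Kcnh2, and all 9 were found among the 23282 genes of that table. The hearts sequenced were of male FVB/N mice, 4 months old, with 4 libraries of wild-type and 4 of AE3-null genotype. AE3 is the chloride/bicarbonate exchanger encoded by Slc4a3. The labels do not say how the null allele was made or in which cells it acts, and both genotypes carried the same strain, sex and age labels, with no treatment named. The libraries are bulk RNA of the heart, so fewer cells of a type and less RNA per cell cannot be told apart.

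Each heartbeat ends when potassium leaves the muscle cell through channels opened by the depolarized membrane. In the mouse, the transient outward current carried by Kv4 channels (Kcnd2 and Kcnd3 with their partner Kcnip2) and by Kv1.4 (Kcna4) shapes early repolarization, and delayed rectifiers such as Kv1.5 (Kcna5) do much of the rest. The slow and rapid delayed rectifiers of Kcnq1 with Kcne1 and of Kcnh2 dominate late repolarization in larger mammals and are the classical long QT syndrome genes.

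The RefSeq promoter table (build GRCm38.p6) held entries for 6 of the 9 genes. The 250 bases before the annotated start are shown for 3 of the 4 genes that rose in AE3-null hearts, so that the sequences beside the changes can be seen; the fourth, Kcne1, had no entry. They are given 5′ to 3′ on the strand of the gene, with capitals marking the GC box, GGGCGG or its reverse complement, which is the site bound by Sp1-type factors.
Kcnd2, chr6:21215096-21215345, plus strand: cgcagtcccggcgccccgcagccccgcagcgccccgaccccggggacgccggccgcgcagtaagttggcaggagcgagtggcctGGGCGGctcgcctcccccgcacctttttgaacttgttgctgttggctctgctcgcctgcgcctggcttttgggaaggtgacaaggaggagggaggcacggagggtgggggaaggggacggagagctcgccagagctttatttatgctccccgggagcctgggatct
Kcnh2, chr5:24329592-24329841, minus strand: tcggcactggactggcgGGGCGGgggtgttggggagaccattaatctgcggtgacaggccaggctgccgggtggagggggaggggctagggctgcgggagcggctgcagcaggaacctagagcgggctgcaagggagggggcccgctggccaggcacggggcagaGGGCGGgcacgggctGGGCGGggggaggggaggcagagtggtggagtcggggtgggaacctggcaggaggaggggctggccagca
Kcna4, chr2:107290339-107290588, plus strand: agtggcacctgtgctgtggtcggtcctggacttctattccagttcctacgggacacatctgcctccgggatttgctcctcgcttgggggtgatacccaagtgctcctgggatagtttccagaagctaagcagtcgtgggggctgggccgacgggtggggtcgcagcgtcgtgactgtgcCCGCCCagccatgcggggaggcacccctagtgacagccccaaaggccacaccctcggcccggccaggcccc
These stretches are rich in G and C, at 68.8% for Kcnd2, 73.6% for Kcnh2 and 65.2% for Kcna4, against a median of 52.4% over all 32851 windows of the table. Of the genes not called, Kcnip2 had 66.8%, Kcnd3 62.8% and Kcna5 53.2%, so a high share was not particular to the genes that rose. The GC box matched once in the Kcnd2 window, 3 times in that of Kcnh2 and once in that of Kcna4. Among genes that were not called, Kcnip2 had 2 matches and neither Kcnd3 nor Kcna5 had one, and 32.7% of all windows held the motif. Of the 250 bases of the Kcnd3 window 119 are exon bases in GENCODE, so that window is not all upstream sequence. The RefSeq start lay within a GENCODE transcript of the same gene for Kcnh2 but not for the other genes with a window, so the place of the start depends on the annotation. The TATA box TATAAA (12.4% of all windows), the cAMP response element TGACGTCA (1.55%) and the Iroquois site ACANNTGT (6.31%) matched in none of the 6 windows on either strand. The E-box CANNTG, which every Iroquois site contains, matched 3 times for Kcna4, once each for Kcnd3, Kcna5 and Kcnip2, and not for Kcnd2 or Kcnh2 (66.2% of all windows). These matches describe letters only.

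Total counts ranged from 9133628 to 27078351 per library. Slc4a3 was lower in all 4 AE3-null libraries (31.5 to 34.6 CPM, read counts scaled to a common library total) than in all 4 wild-type libraries (378 to 389 CPM). Cardiomyocyte markers were abundant in every library, with a summed level of 75214 to 82297 CPM in wild-type and 75509 to 81889 CPM in AE3-null libraries over 6 genes. On the second principal component over all tested genes, which held 16.1% of the variance, wild-type replicate 3 lay at -19.3 and the remaining 7 libraries between -1.09 and 8.26. Among the 9 channel genes it was the highest wild-type library for 3 and the lowest for 4, so results of the channel genes, and of the other Kv genes and regulators named, are given below without it where that changes a call. Wild-type replicate 4 was at the edge nearly as often, as the highest wild-type library for 1 and the lowest for 5.

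The main comparison asked which channel genes differed by genotype. Of the 9 genes, 4 were higher in AE3-null hearts and none was lower (edgeR quasi-likelihood test, adjusted p under 0.05). At an unadjusted p under 0.05 the counts were 5 higher, with Kcnq1 added, and 0 lower. DESeq2 called 3 higher, without Kcne1 (DESeq2 adjusted p 0.113), and limma voom called 4 higher. Both called 0 lower. Kcna4 rose 2.15-fold, Kcne1 1.69-fold, Kcnh2 1.27-fold and Kcnd2 1.26-fold. As background, 6.47% of the 14136 tested genes were called, 3.16% upward and 3.31% downward. The median log2 fold change was 0.18 over the 9 genes and -0.0018 over all tested genes. The genotypes did not overlap for 3 of the 9, each with AE3-null above, against 6.1% of all tested genes in that direction. The 9 genes were chosen with earlier results of these data known, so these contrasts with all tested genes are not an independent test. None of the 9 genes lies on the chromosome that carries Slc4a3.

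**Figure D1:**
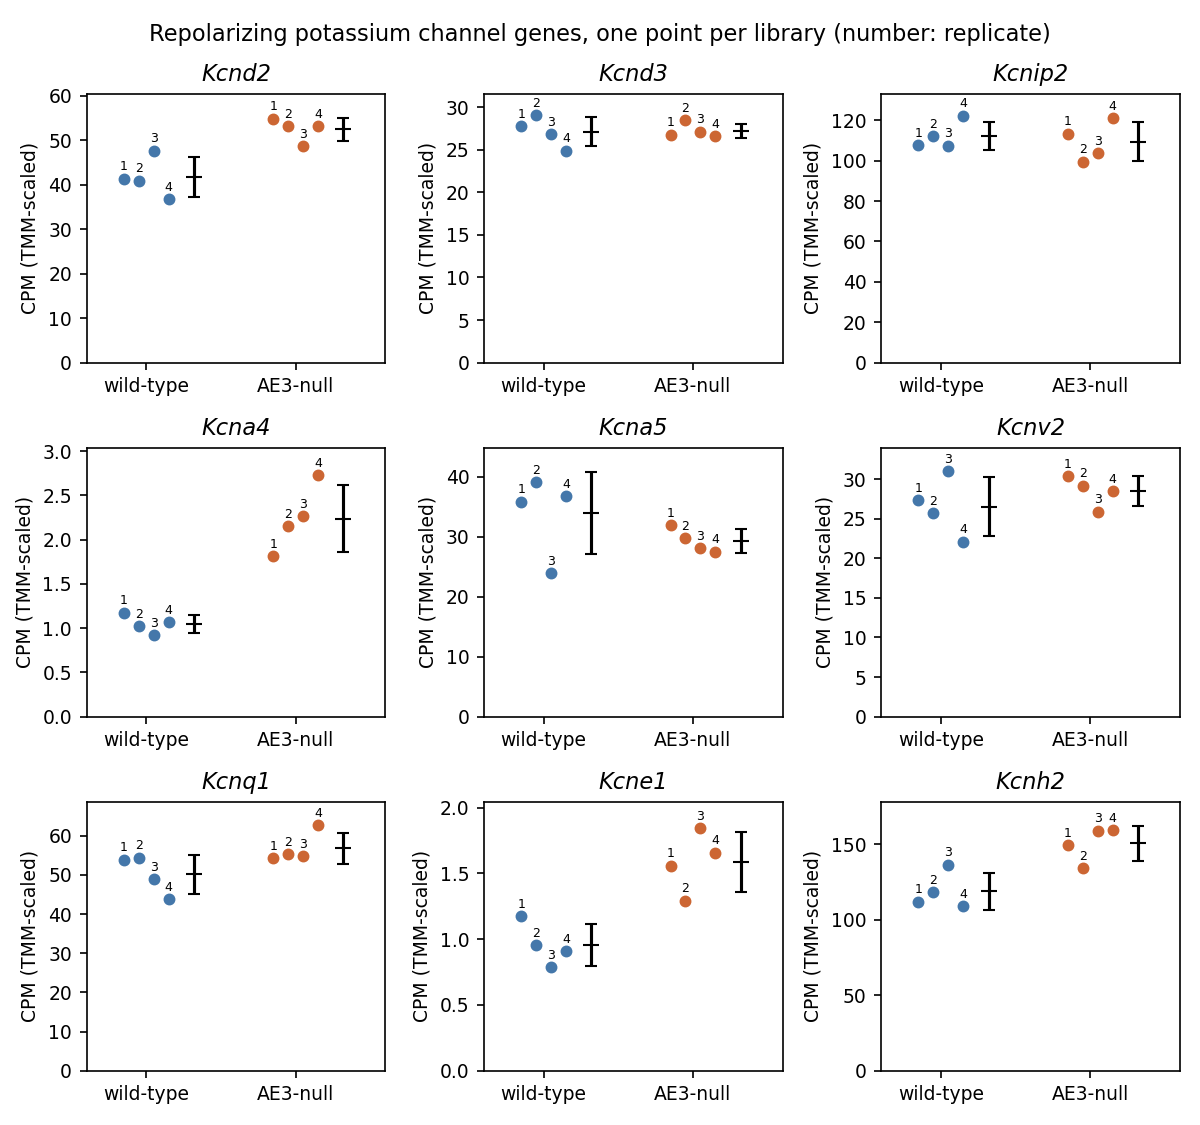
Level of each of the 9 channel genes in every library, in CPM on a linear axis that starts at 0. Numbered points are replicates and black bars are mean ± SD of 4 libraries. For Kcnd2, Kcna4 and Kcne1 all AE3-null points lie above all wild-type points, and wild-type replicate 3 is the lowest of all 8 libraries for Kcna5.

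The fast transient outward current has Kv4.2 and Kv4.3 as its pore subunits, encoded by Kcnd2 and Kcnd3. Kcnd2 stood at 41.3, 40.9, 47.7 and 36.8 CPM in wild-type replicates 1 to 4 and at 54.8, 53.2, 48.7 and 53.2 CPM in AE3-null replicates 1 to 4. All AE3-null libraries were above all wild-type libraries, with wild-type replicate 3 the nearest to them. Kcnd2 averaged 41.7 ± 4.50 CPM in wild-type and 52.5 ± 2.62 CPM in AE3-null hearts (SD, n = 4), a rise of log2 0.34 (SE 0.068, edgeR adjusted p 0.00843). The call of Kcnd2 was kept in each of 16 alternative analyses, with log2 fold changes from 0.28 to 0.41.

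Kcnd3 was not called. It stood at 27.7, 29.0, 26.8 and 24.9 CPM in wild-type and at 26.7, 28.4, 27.1 and 26.6 CPM in AE3-null replicates 1 to 4. The AE3-null libraries lay inside the wild-type range, and the log2 fold change was 0.0019 (95% interval -0.12 to 0.12, edgeR adjusted p 0.991). In the GENCODE annotation of GRCm38, 165 exon bases of Kcnd3 are shared with the antisense gene Kcnd3os, and reads there cannot be assigned with certainty because the strand setting of the counting is not given.

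Kcnip2 encodes KChIP2, the cytosolic calcium-binding partner that brings Kv4 channels to the membrane. Its level was 108, 112, 107 and 122 CPM in wild-type and 113, 99.4, 104 and 121 CPM in AE3-null replicates 1 to 4. The genotypes overlapped, and the log2 fold change was -0.04 (95% interval -0.17 to 0.10, edgeR adjusted p 0.804). A change of Kcnip2 as large as that of Kcnd2 lies outside this interval.

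Kcna4 encodes Kv1.4, the pore subunit of the slow transient outward current, which recovers slowly from inactivation. It was scarce, with 14 to 74 reads per library. Its level was 1.17, 1.02, 0.918 and 1.07 CPM in wild-type and 1.81, 2.15, 2.26 and 2.73 CPM in AE3-null replicates 1 to 4. The lowest AE3-null library was above the highest wild-type library. Kcna4 averaged 1.05 ± 0.106 CPM in wild-type and 2.24 ± 0.377 CPM in AE3-null hearts (SD, n = 4), a rise of log2 1.10 (SE 0.205, edgeR adjusted p 0.00417) with a 95% interval of 1.59-fold to 2.90-fold. Kcna4 was called in each of the 15 alternatives in which it was tested, with log2 fold changes from 0.96 to 1.21; the filter at a minimum count of 50 removed it.

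Kcna5 encodes Kv1.5, a delayed rectifier that inactivates slowly and is prominent in atrial muscle. It was measured at 35.9, 39.1, 23.9 and 36.8 CPM in wild-type and at 31.9, 29.7, 28.1 and 27.5 CPM in AE3-null replicates 1 to 4. Wild-type replicate 3 was the lowest of the 8 libraries, and the other 3 wild-type libraries were above all AE3-null libraries. With all libraries Kcna5 was not called (log2 -0.21, SE 0.146, edgeR adjusted p 0.464). Without wild-type replicate 3 it fell by 0.34 on the log2 scale (edgeR adjusted p 0.00105), so the call rested on whether that library was included. That fit called 821 genes higher and 906 lower over all 14309 tested genes, against 447 and 468 in the main fit.

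Kcnv2 encodes Kv8.2, a subunit that forms no channel alone and modifies Kv2 channels. Its level was 27.3, 25.7, 31.0 and 22.1 CPM in wild-type and 30.4, 29.2, 25.9 and 28.5 CPM in AE3-null replicates 1 to 4. Wild-type replicate 3 was the highest of all 8 libraries and wild-type replicate 4 the lowest, and the AE3-null libraries lay between them. The log2 fold change was 0.11 (95% interval -0.09 to 0.30, edgeR adjusted p 0.539). Omitting wild-type replicate 4 gave 0.026 and omitting wild-type replicate 3 gave 0.19, and neither value was called.

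Kcnh2 encodes ERG1, the pore subunit of the rapid delayed rectifier. It was measured at 112, 118, 137 and 109 CPM in wild-type and at 149.8, 134, 159 and 159.6 CPM in AE3-null replicates 1 to 4. Wild-type replicate 3 was above AE3-null replicate 2, and all other wild-type libraries were below all AE3-null libraries. Kcnh2 averaged 119 ± 12.3 CPM in wild-type and 151 ± 11.8 CPM in AE3-null hearts (SD, n = 4), a rise of log2 0.35 (SE 0.077, edgeR adjusted p 0.0270). The direction was the same in each of 16 alternatives, while the call was lost in 7 of them, with adjusted p-values up to 0.0880. Without wild-type replicate 3 the log2 fold change was 0.42 (edgeR adjusted p 0.000176), and without wild-type replicate 4 it was 0.31 (edgeR adjusted p 0.0754).

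Kcnq1 encodes Kv7.1, the pore subunit of the slow delayed rectifier, and Kcne1 encodes minK, the single-pass partner that slows its opening. Kcnq1 stood at 53.9, 54.4, 48.9 and 43.8 CPM in wild-type and at 54.3, 55.3, 54.7 and 62.7 CPM in AE3-null replicates 1 to 4. AE3-null replicate 4 was above the rest, and AE3-null replicates 1 to 3 lay close to wild-type replicates 1 and 2. Kcnq1 was not called (log2 0.18, SE 0.070, edgeR adjusted p 0.147). Its log2 fold change was 0.12 without wild-type replicate 4 (edgeR unadjusted p 0.0724, adjusted p 0.351) and 0.13 without AE3-null replicate 4 (edgeR unadjusted p 0.0876, adjusted p 0.383), so its unadjusted p stayed under 0.05 only with both of these libraries. Its 95% interval of 0.03 to 0.33 on the log2 scale is for this gene alone, before adjustment over all genes.

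Kcne1 was scarce too, with 12 to 45 reads per library. Its level was 1.17, 0.954, 0.787 and 0.909 CPM in wild-type and 1.56, 1.29, 1.84 and 1.66 CPM in AE3-null replicates 1 to 4. The genotypes did not overlap. Kcne1 averaged 0.956 ± 0.161 CPM in wild-type and 1.59 ± 0.229 CPM in AE3-null hearts (SD, n = 4), a rise of log2 0.76 (SE 0.215, edgeR adjusted p 0.0455). The call was lost in 11 of the 15 alternatives in which Kcne1 was tested, among them the omission of each single library, with adjusted p-values up to 0.129; its log2 fold change ranged from 0.68 to 0.87.

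The long non-coding RNA Kcnq1ot1 is transcribed antisense to Kcnq1 and shares 121 exon bases with it in the GENCODE annotation. Kcnq1ot1 was measured at 12.3 ± 1.20 CPM in wild-type and 12.4 ± 0.576 CPM in AE3-null hearts (SD, n = 4; log2 0.02, edgeR adjusted p 0.933). The remaining 7 members shared no exon base with another gene of that annotation.

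**Figure D2:**
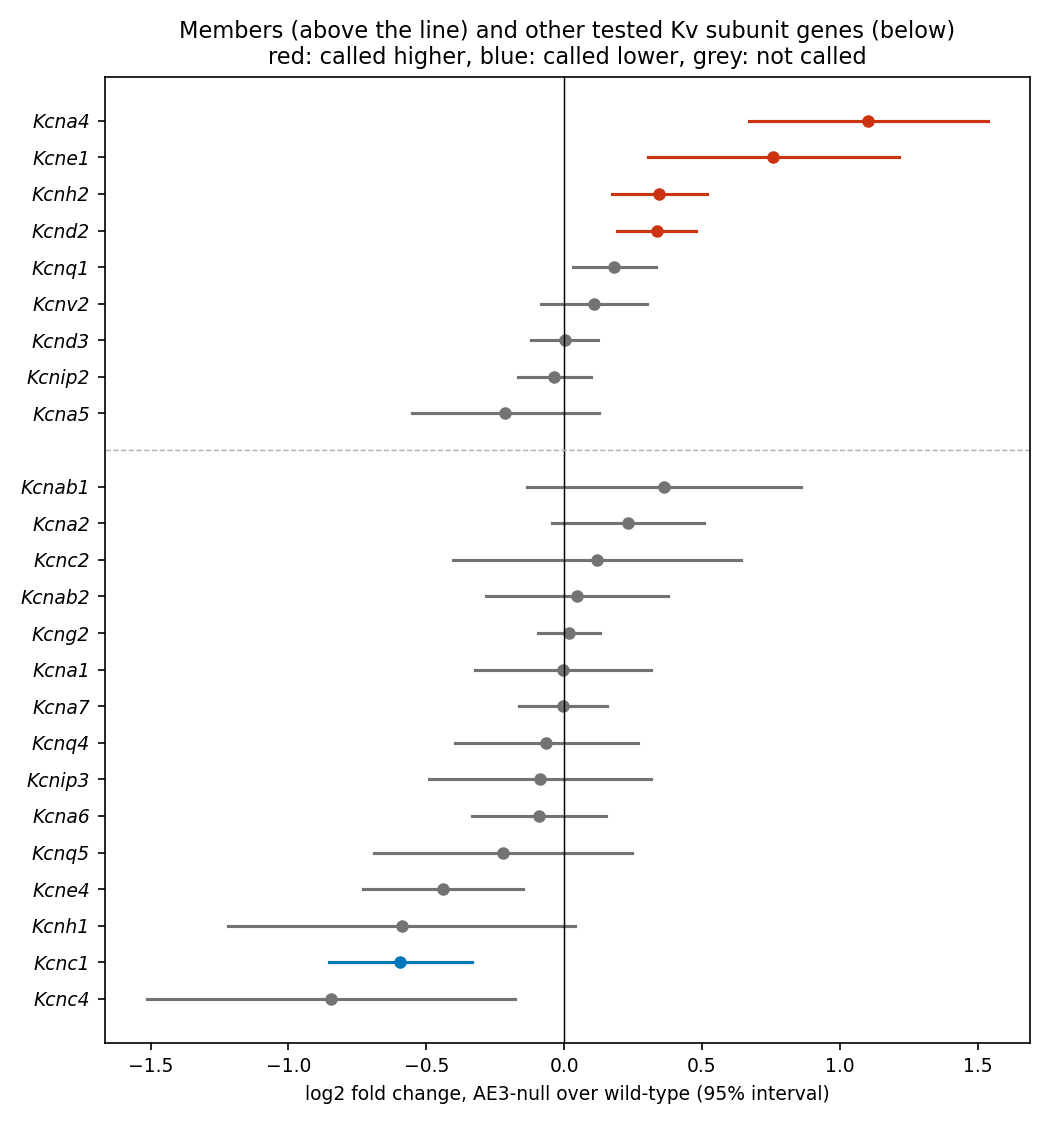
Log2 fold change of AE3-null over wild-type hearts with its 95% interval for the 9 channel genes (above the dashed line) and 15 other tested Kv subunit genes (below). Kcna4, Kcne1, Kcnh2 and Kcnd2 are the called rises, and Kcnc1 is the called fall.

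Which rises held when single libraries were removed differed between the 4 genes. Without any one library, Kcna4 and Kcnd2 were called in all 8 fits, Kcnh2 in 2 and Kcne1 in none. Kcna5 was called in 1 fit, the one without wild-type replicate 3.

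**Figure D3:**
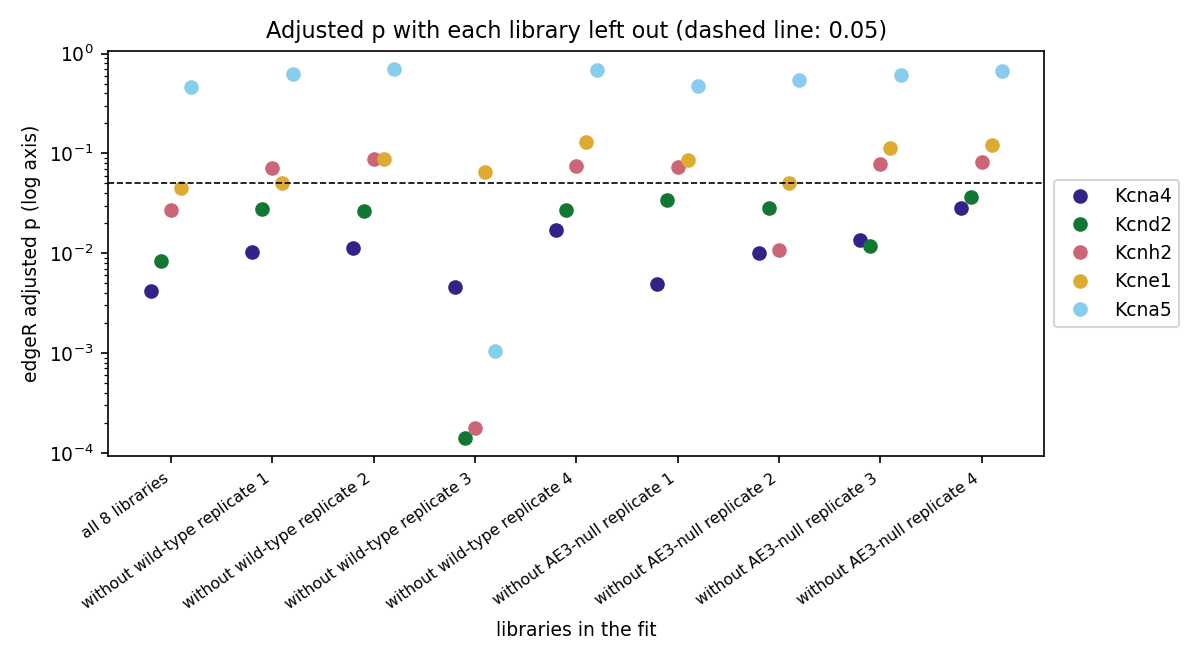
Adjusted p from edgeR (log axis) for the 4 called genes and Kcna5 with all 8 libraries and with each library left out. Kcna4 and Kcnd2 stay under the dashed line at 0.05 throughout, Kcnh2 and Kcne1 cross it, and Kcna5 falls to 0.00105 without wild-type replicate 3.

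Subunits that assemble, or that carry neighbouring currents, were next compared as ratios of read counts within each library, which do not depend on scaling between libraries. The first ratio set the Kv4 pore subunits against each other: Kcnd2 reads per Kcnd3 read numbered 1.49, 1.41, 1.78 and 1.48 in wild-type and 2.05, 1.87, 1.797 and 2.001 in AE3-null replicates 1 to 4. The genotypes did not overlap, with wild-type replicate 3 just under AE3-null replicate 3. The mean log2 ratio was higher by 0.33 in AE3-null hearts (exact permutation test, two-sided, p 0.0286, adjusted p 0.0571 over 6 ratios). With 4 libraries a group, 0.0286 is the smallest p that the 70 splits allow, and the adjusted value did not pass 0.05. A larger difference in this ratio could not have lowered it, since the adjusted value then depended on how many of the 6 ratios reached 0.0286. The same holds for the other ratios at that p.

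The ratio of Kcna4 to Kcnd2 plus Kcnd3 reads sets the slow against the fast transient outward pore subunits. Wild-type hearts had a ratio of 0.0158 ± 0.00233 and AE3-null hearts one of 0.0285 ± 0.00503 (SD, n = 4), without overlap. The log2 difference was 0.85 (exact permutation p 0.0286, adjusted p 0.0571). Kcne1 relative to its partner Kcnq1 went from 0.0197 ± 0.00263 to 0.0286 ± 0.00418 (SD, n = 4), again without overlap (log2 difference 0.54, exact permutation p 0.0286, adjusted p 0.0571).

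Kcnip2 relative to its 2 Kv4 partners was lower on average, at 1.65 ± 0.234 reads per Kv4 read in wild-type and 1.37 ± 0.122 in AE3-null hearts (SD, n = 4). AE3-null replicate 4, at 1.52, was above wild-type replicate 3, at 1.44, so the groups overlapped (log2 difference -0.26, exact permutation p 0.0571, adjusted p 0.0857). Without wild-type replicate 4, the library with the highest ratio, the log2 difference was -0.16.

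**Figure D4:**
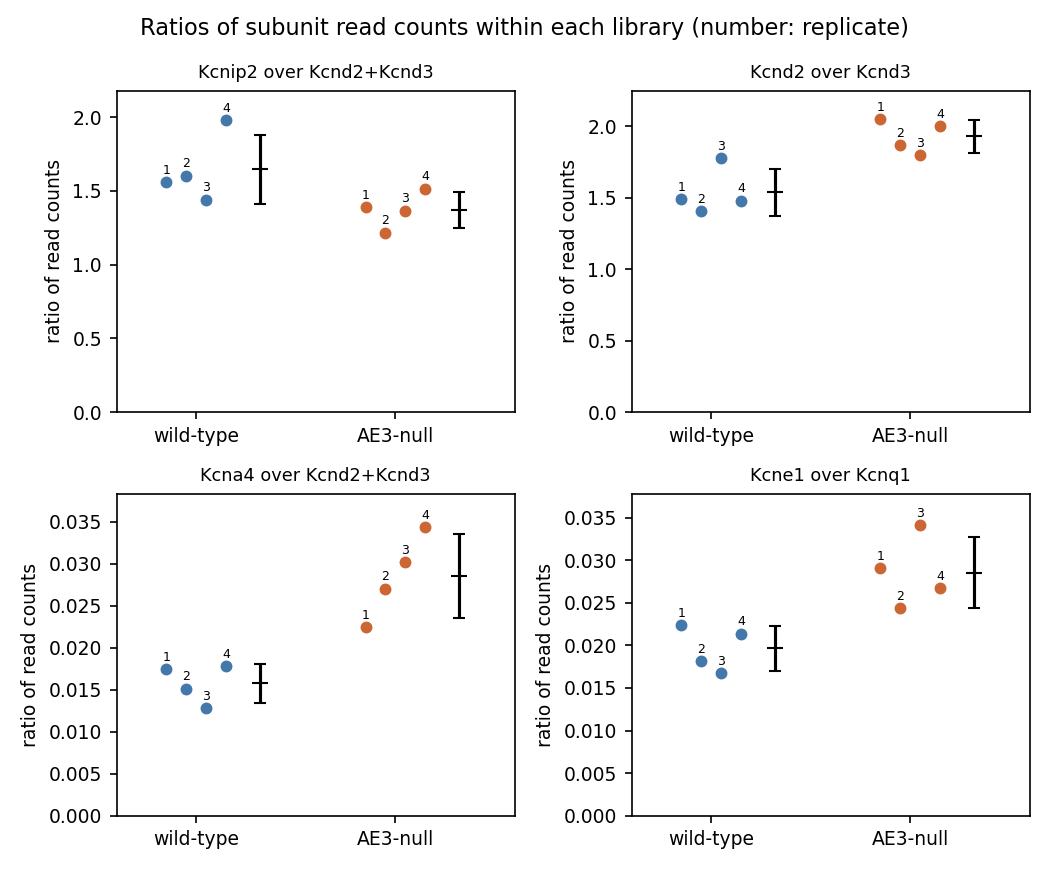
Ratios of subunit read counts within each library, on linear axes that start at 0, with mean ± SD of 4 libraries in black and replicate numbers beside the points. The AE3-null points lie above the wild-type points for Kcnd2 over Kcnd3, Kcna4 over Kcnd2 plus Kcnd3, and Kcne1 over Kcnq1, and overlap them for Kcnip2 over Kcnd2 plus Kcnd3.

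Levels were compared between genes only as CPM per kilobase of exon, with exon lengths taken from GENCODE on GRCm38. In wild-type hearts the order of these levels was Kcnip2 (45.1 ± 2.77), Kcnh2 (25.6 ± 2.65), Kcnq1 (16.6 ± 1.64), Kcna5 (11.9 ± 2.38), Kcnd2 (8.09 ± 0.873), Kcnv2 (5.19 ± 0.726), Kcnd3 (3.57 ± 0.230), Kcne1 (0.298 ± 0.0502) and Kcna4 (0.218 ± 0.0221; all SD, n = 4). Kcna5 and Kcnd2 were neighbours whose libraries overlapped, as were Kcne1 and Kcna4, and all other neighbours were separated. The order of the means was the same in AE3-null hearts, where Kcna5 (10.2 ± 0.686) and Kcnd2 (10.2 ± 0.509) were level. In both genotypes the genes with the largest fold changes, Kcna4 and Kcne1, were the 2 with the lowest levels per kilobase.

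**Figure D5:**
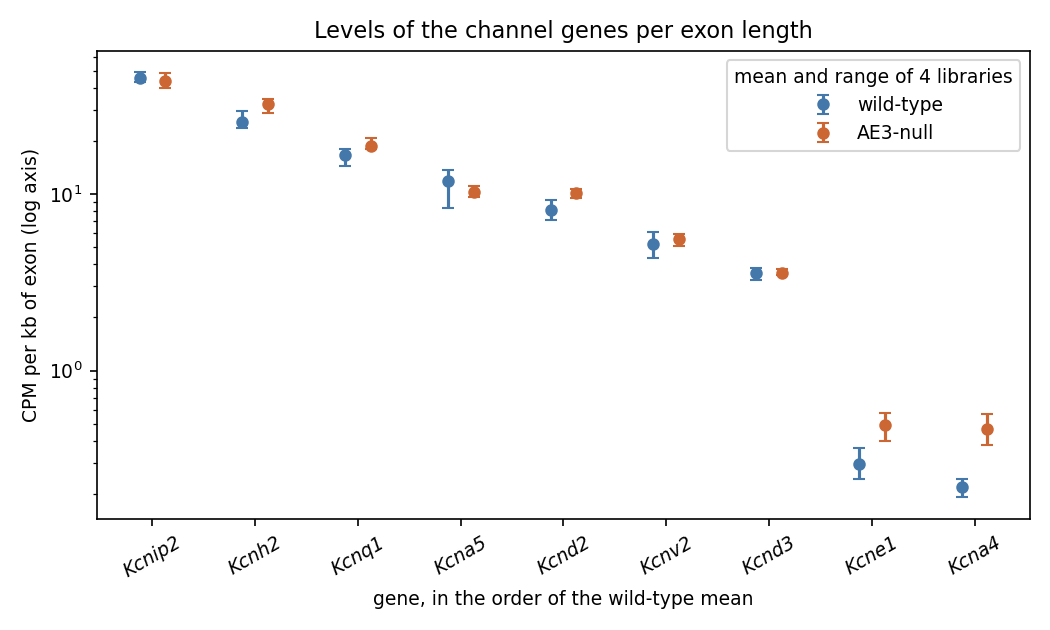
Mean and range over 4 libraries of CPM per kilobase of exon (log axis) for the 9 channel genes in both genotypes, ordered by the wild-type mean. Kcnip2 is highest and Kcne1 and Kcna4 are lowest in both genotypes.

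Kv pore subunits outside the 9 were mostly low and mostly not called. Of 24 such genes 12 passed the filter on low counts, none was called higher by edgeR and 1 was called lower, beside 3.16% and 3.31% of all tested genes. Their median log2 fold change was -0.03. At an unadjusted p under 0.05, 1 was higher and 2 were lower (Kcnc1 and Kcnc4), and DESeq2 and limma voom each called 0 higher and 1 lower. The fall was that of Kcnc1, which encodes the fast-gating Kv3.1, from 7.17, 6.82, 6.69 and 7.65 CPM in wild-type to 5.01, 6.03, 3.84 and 4.46 CPM in AE3-null replicates 1 to 4. The genotypes did not overlap (log2 -0.59, SE 0.123, edgeR adjusted p 0.00861), and Kcnc1 was called in each of 16 alternatives.

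Of 21 further modifier and auxiliary subunits 5 were tested and none was called by edgeR, DESeq2 or limma voom; Kcne4 alone had an unadjusted p under 0.05. The highest was Kcng2, which encodes the silent Kv2 partner Kv6.2, at 155 ± 5.87 CPM in wild-type and 156 ± 13.2 CPM in AE3-null hearts (SD, n = 4; log2 0.02, edgeR adjusted p 0.892). Per kilobase of exon, Kcng2 reached 55.0 ± 2.09 CPM in wild-type hearts, above all 9 genes described here. Kcne4, an inhibitory partner of Kv7.1 and Kv1 channels, was lower in every AE3-null library (2.80 to 4.34 CPM) than in every wild-type library (4.79 to 5.50 CPM). It was not called (log2 -0.44, SE 0.137, edgeR adjusted p 0.0681); without wild-type replicate 3 its adjusted p was 0.0465. Kcne4 lies on the chromosome that carries Slc4a3, and it is given here after its values were seen.

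Among 12 regulators and scaffolds of Kv channels, all tested, 3 rose and 1 fell, and the median log2 fold change was 0.06. Over all tested genes 3.16% were called higher and 3.31% lower. The list was chosen with earlier results of these data known. Hopx, a homeodomain-only cofactor, rose from 222 ± 12.8 to 262 ± 11.9 CPM (SD, n = 4; log2 0.24, edgeR adjusted p 0.00390) and was called in each of 16 alternatives. Tbx5, a T-box transcription factor, rose by log2 0.27 (edgeR adjusted p 0.0169). Its genotypes overlapped, with wild-type replicate 3 (48.1 CPM) above AE3-null replicate 2 (47.7 CPM). Cav3, the caveolin of muscle membranes, rose by log2 0.18 (edgeR adjusted p 0.0172). Dlg1, the SAP97 scaffold that binds Kv1 and Kv4 channels, fell by 0.18 on the log2 scale (edgeR adjusted p 0.0245). These last 3 calls were lost in 4, 3 and 7 of 16 alternatives. Irx4, a ventricular homeobox factor, was at 39.2 ± 2.03 CPM in wild-type and 44.7 ± 2.26 CPM in AE3-null hearts (SD, n = 4), with all AE3-null libraries above all wild-type libraries. It was not called in the main fit (log2 0.19, edgeR adjusted p 0.0507) but was called higher in 7 of 16 alternatives. Among these were edgeR fits of all 8 libraries with RLE scaling (adjusted p 0.0485), total counts only (0.0336) and no filter (0.0432). A minimum count of 50 (edgeR adjusted p 0.0453) and the replicate block (0.0461) also kept all libraries. The others were without wild-type replicate 3 (edgeR adjusted p 0.0347) and without wild-type replicate 4 (edgeR adjusted p 0.0468). Over the 16 the adjusted p was 0.0336 to 0.158. Irx5, a repressor of Kcnd2 in the ventricular wall, had a log2 fold change of -0.04 (edgeR adjusted p 0.925). Actn2, the member with the highest CPM, had one of -0.03 (edgeR adjusted p 0.746).

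Some markers of other cell types moved with genotype beside these channel genes. The counts of called markers stand beside 3.16% of all tested genes called higher and 3.31% called lower. Of 7 atrial markers 6 were called higher (Nppa, Myl4, Myl7, Sln, Mybphl and Dkk3). The summed level of the 7 was 3022 to 3587 CPM in wild-type and 4006 to 4597 CPM in AE3-null libraries. Much of that sum was Nppa, at 2077 ± 209 CPM in wild-type and 2783 ± 196 CPM in AE3-null hearts (SD, n = 4). None of 4 ventricular markers was called by the main edgeR fit, DESeq2 or limma voom. Irx4, given above, had an unadjusted p under 0.05 in the main fit. It was called in 7 of 16 alternatives, among them edgeR fits with all 8 libraries. Sums of the ventricular markers were 9416 to 9714 and 9238 to 9981 CPM. These sums were mostly Myl2 and Myl3 (means of 5117 and 4404 CPM in wild-type hearts), so they say little of Irx4 and Hey2. Of 6 conduction system markers Hcn4 was called higher; the sums were 50.02 to 64.7 and 58.0 to 65.2 CPM, and Isl1 was too low to test. Neuron and Schwann cell markers, of which Dbh alone of 11 was called higher, summed to 24.0 to 24.8 CPM in wild-type and 27.1 to 31.0 CPM in AE3-null libraries. The mean sum went from 24.3 to 28.8 CPM. Much of that rise was Dbh itself, which went from 3.95 ± 0.590 to 6.90 ± 0.610 CPM (SD, n = 4). The remaining markers of that list included Th and Snap25, which were too low to test.

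Of 6 smooth muscle and pericyte markers Myh11 was called higher, with sums of 631 to 688 CPM in wild-type and 662 to 767 CPM in AE3-null libraries. Pecam1, Kdr and Esam were called lower among 6 endothelial markers, whose sums were 1140 to 1276 and 1000.1 to 1052 CPM. Dpt was called lower among 6 fibroblast markers (sums of 1144 to 1298 and 1246 to 1277 CPM). The median log2 fold change of these 6 was 0.08, so Dpt did not give the direction of the list. Tnnt2 and Pln were called higher among the 6 cardiomyocyte markers. The part that these markers have in the values of the channel genes was not tested.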

How the data were processed

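RNA-seq libraries of 4 wild-type and 4 AE3-null hearts were compared. The authors deposited raw read counts per Entrez gene, 1 column per library. The tools named per the submitters' processing notes are bcl2fastq, CASAVA 1.8, TopHat and DESeq, with genome build mm9. How reads were counted (program, strand setting, annotation) is not given in the sources used here. Symbols were matched for 23185 of 23282 genes in a RefSeq table of GRCm38.p6, a build other than that of the files; promoter positions and exon lengths are those of GRCm38.

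Genotypes were compared with edgeR 4.0.16 (R 4.3.3): filterByExpr at a minimum count of 10 (14136 genes), TMM scaling, robust quasi-likelihood F test, and Benjamini-Hochberg adjustment over all tested genes, with 0.05 as the threshold. Log2 fold changes are AE3-null over wild-type, and standard errors derive from the F statistic. CPM use TMM-scaled library sizes. Ratios had 0.5 counts added and were compared by exact permutation over the 70 splits. No library was a copy of another: the chi-square per gene between libraries of 1 genotype was 2.57 to 7.63. The series' design text gives 4 mice of each genotype, the number of libraries, and the spread behind each p-value is that between these libraries. Scripts were tested on simulated data.

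The 9 genes, the other lists and the ratios were chosen with earlier results of these data known. All 9 genes are named, with Slc4a3 and Kcnq1ot1, each called gene of the other lists and the most abundant tested member of each Kv list, except that a few genes, and the results that need them (2 of the 6 ratios among these), are not reported here. Marker genes are named where called or too low. Kcne4, Kcnc4, Irx4, Irx5 and the exon overlaps were added after values were seen. Alternatives were RLE scaling, total counts only, no filter, a minimum count of 50, DESeq2 1.42.0, limma voom (limma 3.58.1), no robust moderation, the replicate number as a block, and each library left out.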

Additional observations from a re-analysis of the deposited data

Results flagged for a closer look

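Kcnq1 in AE3-null replicate 4 stood at 62.7 CPM, far above the 54.3 to 55.3 CPM of the other 3 AE3-null libraries. Its gap to the nearest library was 0.889 of the range of the group, past Dixon's 95% limit for 4 libraries. This was the 1 case among 30 groups of 4 examined, a number at which chance alone passes the limit about 1 time in 20 groups.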

How the results depend on the processing

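Kcna4 and Kcnd2 kept their direction and their call in each alternative in which they were tested. With all 8 libraries 4 channel genes were called higher in the main fit. With no filter 2 were called (Kcne1 adjusted p 0.0540 and Kcnh2 0.0519 by edgeR). At a minimum count of 50, where Kcna4 and Kcne1 were not tested, 2 were called. DESeq2 called 3, without Kcne1 (DESeq2 adjusted p 0.113). With single libraries left out, 2 to 3 of the 9 were called higher and 0 to 1 lower. Over all tested genes 447 were higher and 468 lower, against 214 to 821 higher and 193 to 906 lower with single libraries left out. The highest of these counts, 821 and 906, came from the fit without wild-type replicate 3. Other Kv subunits and regulators numbered 3 higher and 2 lower, against 1 to 4 higher and 1 to 3 lower with single libraries left out. The cause of these differences was not tested. Kcnd3 ranged from -0.038 to 0.037 on the log2 scale, Kcnip2 from -0.089 to 0.0096 and Kcnq1ot1 from -0.035 to 0.066, and none of these was called. With total counts only, the median log2 fold change of all genes was 0.018 and the same 4 channel genes were called.

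Same-numbered libraries deviated together with correlations of 0.192, -0.018, 0.040 and 0.0067, so the numbers were not taken as pairs. With the replicate number as a block 3 channel genes were called higher, and Kcne1 was not (edgeR adjusted p 0.0751). The ratios compared by paired differences could not pass 0.05, since 0.125 is the smallest p that 4 pairs allow. With single libraries left out, the log2 differences of the ratios were 0.29 to 0.40 for Kcnd2 over Kcnd3, 0.75 to 0.96 for Kcna4 over Kcnd2 plus Kcnd3, 0.45 to 0.61 for Kcne1 over Kcnq1 and -0.32 to -0.16 for Kcnip2 over Kcnd2 plus Kcnd3. Kcne1 had 12 to 45 reads per library and Kcna4 14 to 74; the part of depth in the lost calls of Kcne1 was not tested.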
